A study of Mus musculus with 18 samples.

Results

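The genes described here are 33 genes that mark Kupffer cells, the macrophages that live in liver, or macrophages and monocytes more widely. They were picked by name, with earlier results of these data known, and the choice named Cxcl13 and Marco. They comprise Kupffer cell surface genes, scavenger receptors, the chemokine gene Cxcl13, the iron exporter gene Slc40a1 and transcription regulators. The rest are pan-macrophage genes, Fc gamma receptors, Cd74 and genes of monocytes and recruited macrophages. Each of the 33 had 1 row in the count table of 37315 genes, and 33 of 33 passed the filter on low counts that left 16213 genes for testing.

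Livers came from C57BL/6J mice of 2, 8 or 16 weeks for which the labels name no other allele. Each morning they had received, into the peritoneum, either L-asparaginase (Elspar), a leukaemia drug that breaks down the asparagine of blood, at 3 IU per g, or the same volume of PBS. Mice of 2 and 16 weeks had 7 injections and mice of 8 weeks had 8, so at 8 weeks the age and the longer course cannot be told apart. Each of the 6 groups held 3 libraries of polyadenylated RNA, taken 7.5 h after the last injection, with replicate numbers that follow deposition and pair no mice. Beyond calling them separate samples the labels say nothing of how replicates were kept, so the p-values measure the spread between these libraries. By the labels, 2 of the 3 PBS libraries were female and 2 of the 3 asparaginase libraries were male both at 8 and at 16 weeks.

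Kupffer cells line the liver sinusoids, where they take up bacteria, aged red cells and debris through complement, scavenger and Fc receptors and pass the iron they recover back to plasma. Their identity is held by signals from neighbouring liver cells and by regulators that include LXR-alpha, Id3 and, in iron-handling macrophages, Spi-C. Monocytes of the blood carry CCR2 and CX3CR1 and can enter the liver and take on macrophage genes.

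Total counts per library ran from 24690871 to 46949361. Of the 6 libraries of 2 weeks, 3 held Xist together with Y-linked transcripts and so go against 1 labelled sex (PBS replicates 1 and 2 and asparaginase replicate 3). Some libraries carried transcripts of other tissues. Levels are CPM, the counts scaled to a common library size by TMM. The summed level of 12 squamous epithelium genes reached 832 CPM in 8-week asparaginase replicate 1, 437 CPM in replicate 2 and 12 CPM in the other library of that group, against 7.78 CPM at most in 8-week PBS libraries. The sum of 10 pancreatic acinar genes reached 2380 CPM in 16-week asparaginase replicate 3. Hepatocyte markers summed to between 57200 and 103000 CPM in all 18 libraries, and the Kupffer cell markers Clec4f, Vsig4, Timd4, Cd5l and Adgre1 had counts in every one. In whole liver RNA, fewer macrophages, less of a transcript per macrophage and less of it from other liver cells cannot be told apart. The same holds for a rise.

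Levels of different genes were compared only as CPM per kb of exon. At 2 weeks with PBS the highest members on that scale were Cd5l, a secreted scavenger receptor family protein, at a mean of 44.2 CPM per kb, Clec4f, a C-type lectin of Kupffer cells, at 41.4, and Lyz2, the macrophage lysozyme, at 33.2. Lyz2 led at 8 and 16 weeks with PBS, at 55.3 and 56.1 CPM per kb. The fractalkine receptor gene Cx3cr1 was lowest in every group, at 0.0786 CPM per kb in 2-week PBS livers, beside Ccr2, the receptor of monocyte recruitment, at 0.155. Marco, a scavenger receptor that binds bacteria, was the 6th highest of the 33 at 2 weeks with PBS, the 20th at 8 weeks, the 18th at 16 weeks and the 5th at 16 weeks with asparaginase. Cxcl13, the chemokine that draws B cells, moved from the 30th place at 2 weeks to the 23rd at 16 weeks with PBS, and to the 11th at 16 weeks with asparaginase. The heat map of the 33 genes in each library sets every value against the PBS mean of its own age.

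**Figure D1:**
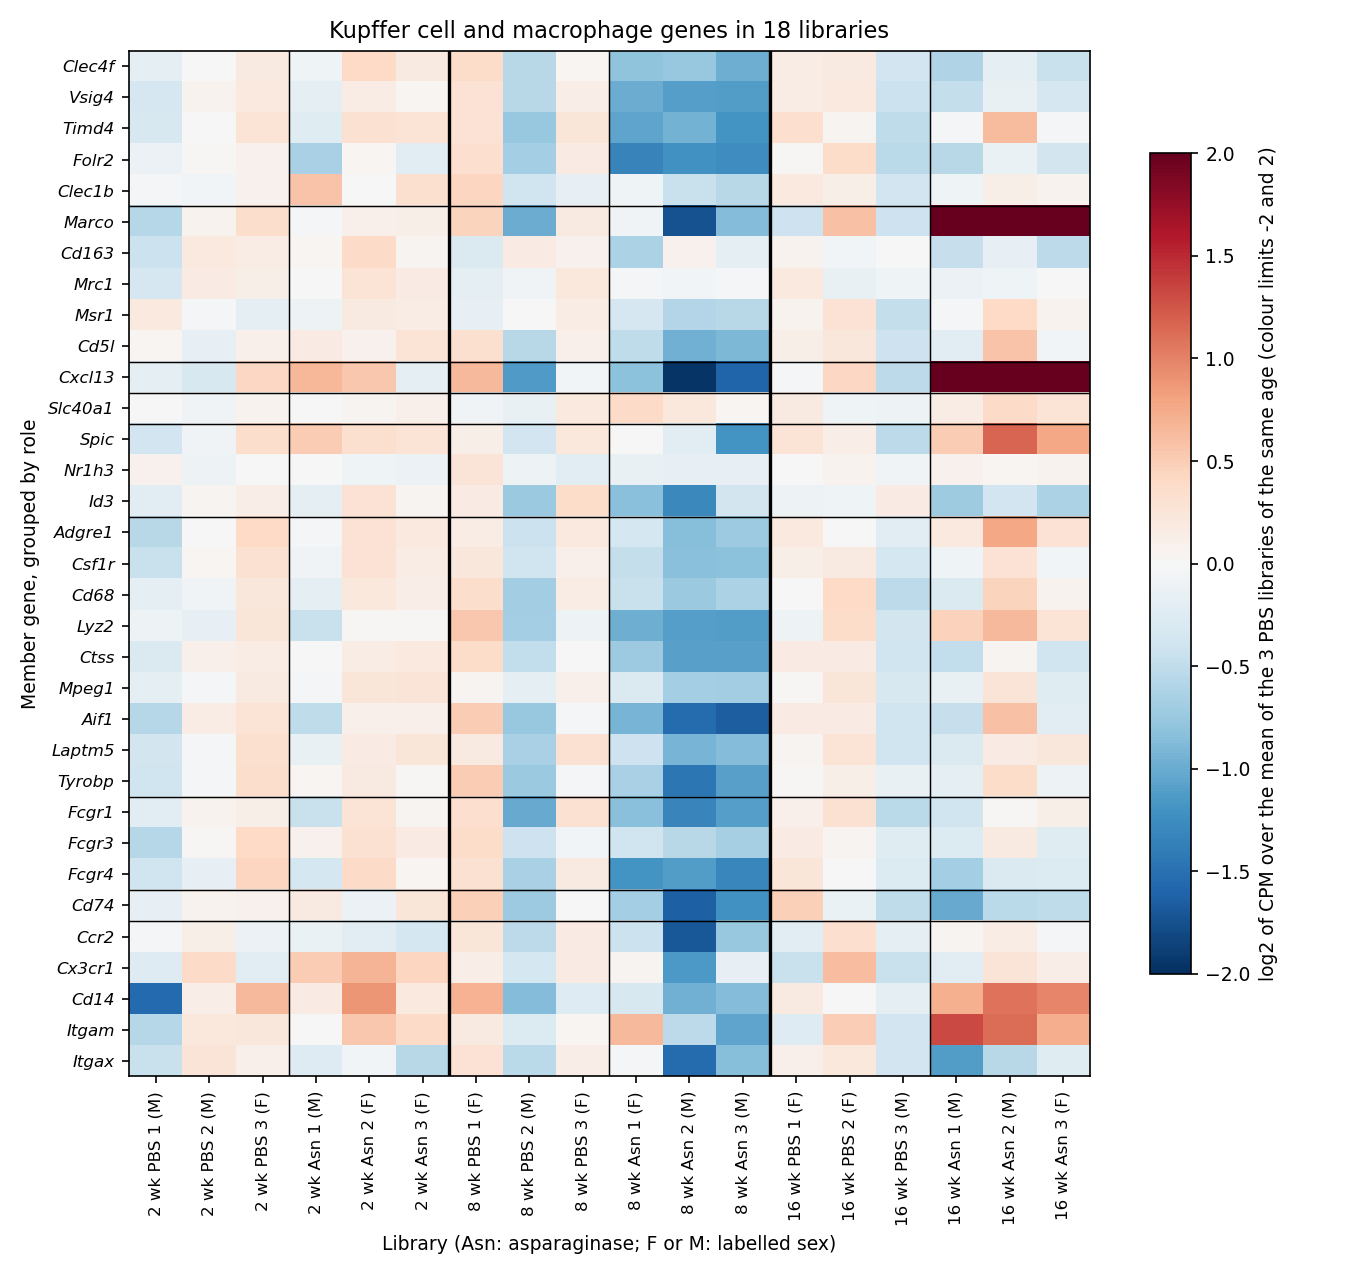
Log2 of the CPM of each member (a row, grouped by role) over the mean CPM of the 3 PBS libraries of the same age, in 18 libraries (columns, with the labelled sex as F or M). Colours stop at -2 and 2; the 16-week asparaginase libraries stand out in Cxcl13 and Marco, and 30, 31 and 32 of the 33 members lie below the PBS mean in 8-week asparaginase replicates 1, 2 and 3.

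With asparaginase Cxcl13 and Marco rose at 16 weeks, and no other member passed the test. Both genes were several times higher in all 3 asparaginase livers than in any PBS liver of that age. By edgeR's quasi-likelihood test with Benjamini-Hochberg adjustment over all genes, 2 of 33 members (6.06%) rose and 0 fell, in a comparison that called 0.247% of the 16213 genes tested, 0.204% higher and 0.0432% lower. DESeq2 and limma-voom each called 2 higher and 0 lower (2.01% and 0.191% of genes called in either direction). At an unadjusted p under 0.05, 5 members were higher (15.2%; 5.59% of all genes) and 3 lower (9.09%; 5.21% of all genes). The members were chosen with earlier results of these data known, so their shares are not those of an unbiased set.

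Cxcl13 (chromosome 5, 95956951 to 95961068, plus strand, GRCm38) measured 17.2, 17.7 and 17.2 CPM in asparaginase livers of 16 weeks, where PBS livers had 3.24, 4.44 and 2.31 CPM. The groups did not overlap, and the asparaginase livers differed from each other less than the PBS livers did (SD 0.267 against 1.07 CPM, n = 3 each). The log2 fold change was 2.52 (SE 0.26, adjusted p = 0.000535, edgeR). It passed the threshold in 30 of 30 alternative analyses, with log2 values from 2.16 to 2.91. Within labelled females the log2 ratio at 16 weeks was 2.16 for Cxcl13 and within males 2.92. The counts behind the 6 values were 489, 592 and 464 with asparaginase and 108, 152 and 66 with PBS.

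Marco (chromosome 1, 120474538 to 120505024, minus strand) measured 53.7, 71.5 and 46.0 CPM under asparaginase, where PBS livers had 7.76, 15.4 and 7.74 CPM at that age. Even the lowest asparaginase liver was well above the highest PBS liver. The log2 fold change was 2.49 (SE 0.34, adjusted p = 0.00513, edgeR). Without 16-week PBS replicate 3, the 1 male PBS library of that age, it was 1.99 with an adjusted p of 0.154, and in a fit to the 6 libraries of 16 weeks alone the adjusted p was 0.0507. Within labelled females the log2 ratio of Marco was 1.99 and within males 3.02. With asparaginase Marco came to 57.1 ± 13.1 CPM, beside 40.8 ± 12.5 CPM in 2-week PBS livers (mean ± SD, n = 3 each).

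The promoter windows of the 2 genes that rose are shown because the genes moved together at 16 weeks. Each is the 250 bases before the RefSeq transcription start (GRCm38.p6), written 5′ to 3′ on the strand of the gene, at chr5:95956689-95956938 for Cxcl13 and chr1:120505025-120505274 for Marco, whose window is read from the minus strand. Capitals mark matches to the searched letters.
Cxcl13: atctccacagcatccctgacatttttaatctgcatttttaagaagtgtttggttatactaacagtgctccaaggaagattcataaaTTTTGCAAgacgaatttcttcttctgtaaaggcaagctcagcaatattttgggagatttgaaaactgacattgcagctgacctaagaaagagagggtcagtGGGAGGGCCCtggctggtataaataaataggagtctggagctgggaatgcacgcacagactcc
Marco: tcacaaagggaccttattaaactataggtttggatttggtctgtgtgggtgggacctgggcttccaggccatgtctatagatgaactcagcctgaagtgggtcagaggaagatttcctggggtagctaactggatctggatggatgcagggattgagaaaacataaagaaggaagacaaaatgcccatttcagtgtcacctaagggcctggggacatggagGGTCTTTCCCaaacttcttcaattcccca

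Both windows hold an NF-kB type sequence, searched on both strands as GGGA, any 4 bases and CC: GGGAGGGCCC in Cxcl13, 63 to 54 bases before the start, and GGTCTTTCCC in Marco, 29 to 20 bases before it. The same letters occur in 17.6% of 32851 RefSeq windows of this length and in 6 of the 26 members with a window used (23.1%), the others being Cd163, Fcgr3, Fcgr4 and Mrc1. Cxcl13 also has TTTTGCAA, 164 to 157 bases before the start, a match to TTGCNNAA, a C/EBP type sequence found in 9.56% of all windows and 3 of the 26. Neither window holds the PU.1 type letters GAGGAAGT (2.44% of all windows, 1 of the 26), the AP-1 type letters TGANTCA (6.75%, 3 of the 26), the interferon response letters GAAA, any 2 bases and GAAA (2.98%, 3 of the 26) or the amino acid response letters TGATGNAA (3.45%, 1 of the 26). A match of this kind describes letters only.

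**Figure D2:**
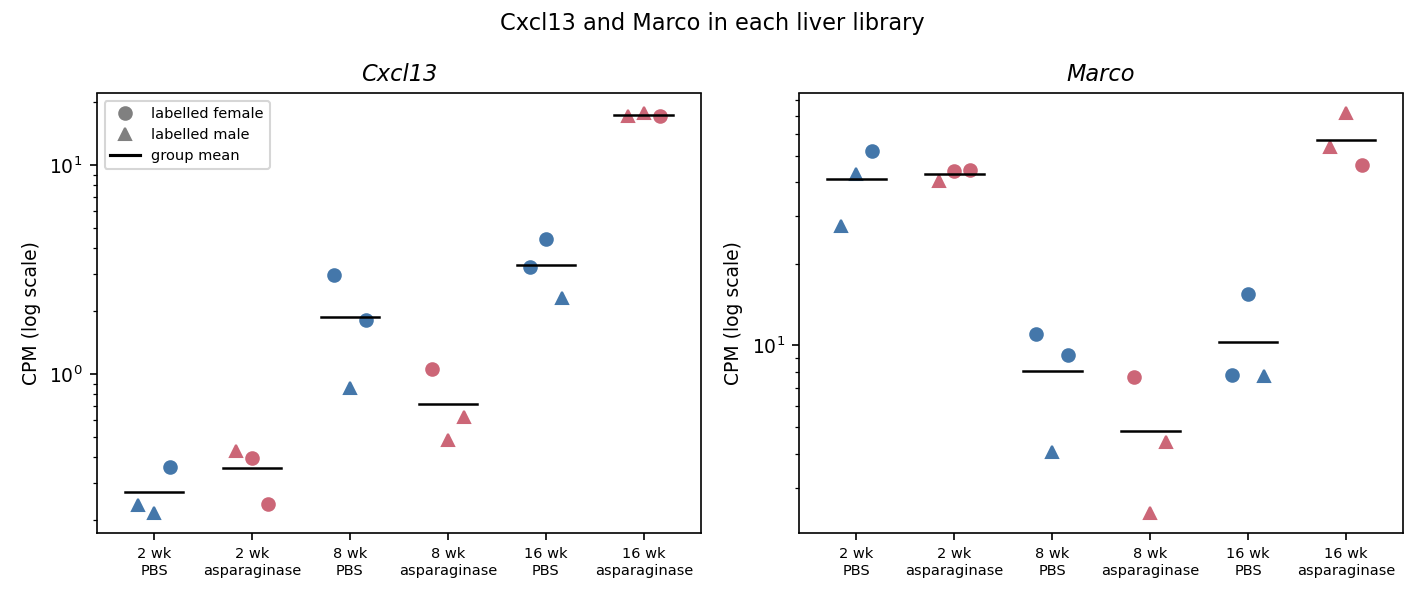
CPM on a log axis of Cxcl13 (left) and Marco (right) in each library of the 6 groups; blue is PBS, red is asparaginase, circles are labelled female, triangles labelled male and bars are group means (n = 3). The 16-week asparaginase livers lie above all 16-week PBS livers in both genes, and the 8-week asparaginase livers do not.

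Among the other members at 16 weeks, the largest differences belonged to monocyte and transcription regulator genes, and none passed. Itgam, the CD11b integrin chain of myeloid cells, measured 4.57, 3.97 and 3.04 CPM under asparaginase, where PBS livers had 1.53, 2.57 and 1.40 CPM (log2 1.07, SE 0.35, adjusted p = 0.261). Spic, the regulator of iron-handling macrophages, stood at 2.29, 3.61 and 2.74 CPM against 1.95, 1.75 and 1.12 CPM (log2 0.96, SE 0.31, adjusted p = 0.254). In both the groups were apart, and the adjusted p-values of edgeR missed the threshold. The exons of Itgam share 3450 bases with those of the predicted gene Gm49368, so its count is uncertain. Slc40a1, which encodes ferroportin, stood at 162, 191 and 177 CPM against 165, 137 and 136 CPM (log2 0.30, SE 0.12, adjusted p = 0.363), with overlap in 1 library of each group. Cd14, the lipopolysaccharide co-receptor, had a log2 difference of 0.99 (SE 0.46, adjusted p = 0.465), and Adgre1, which encodes F4/80, one of 0.46 (adjusted p = 0.498).

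On the other side of 0 at 16 weeks were Id3, Cd163 and Cd74. Id3, a regulator that Kupffer cells need, measured 13.1, 16.4 and 13.8 CPM under asparaginase, where PBS livers had 20.0, 20.3 and 24.1 CPM (log2 -0.63, SE 0.25, adjusted p = 0.372). Cd163, the haemoglobin scavenger receptor, had a log2 difference of -0.42 (adjusted p = 0.431), and Cd74, the invariant chain that guides MHC class II, one of -0.47 (adjusted p = 0.442). Id3 and Cd163 were lower in each asparaginase liver than in each PBS liver, and Cd74 overlapped.

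Over the 33 members at 16 weeks the median log2 difference was 0.13, with 22 above 0 (49.9% of all genes were) and 11 below, against a median of 0 over all genes tested. Asparaginase livers lay wholly above PBS livers in 6 members (18.2%; 10.1% of all genes) and wholly below in 3 (9.09%; 9.63% of all genes). The sign of the median rested on 1 library: it was -0.13 without 16-week PBS replicate 3 and above 0 in the other 29 alternatives. Within labelled females (1 asparaginase against 2 PBS libraries) 23 members were lower, with a median of -0.13, and within males (2 against 1) 26 were higher, with a median of 0.38. The 5 Kupffer cell surface genes had a median of -0.18 and the 9 pan-macrophage genes one of 0.13, and 0 of either set passed by edgeR, DESeq2 or limma-voom. In the surface set 0 had an unadjusted p under 0.05 by any of the 3, and in the pan-macrophage set 0 by edgeR and 1 by each of the others.

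Skeletal muscle genes moved with treatment at 16 weeks, with sums of 4.89, 19.2 and 3.52 CPM in asparaginase livers and 144, 264 and 44.9 CPM in PBS livers. DESeq2 called 6 of the 9 tested lower, where it called 0.909% of all genes lower, and limma-voom called 0. The part of muscle genes in these results was not tested. Acinar sums were 201, 12.7 and 2380 CPM with asparaginase and 12.1, 311 and 345 CPM with PBS, and their part was not tested either. Since injections went into the peritoneum, markers of peritoneal macrophages were read too. Gata6, which defines them, was at 2.95, 4.00 and 4.30 CPM after asparaginase, below the 5.04, 5.20 and 6.30 CPM of PBS livers, and Alox15 was at 0.176 to 0.388 CPM beside 0.21 to 0.28 CPM. Prg4 was the list's closest to the threshold, at 68.9, 60.8 and 83.0 CPM against 43.5, 40.0 and 42.7 CPM (log2 0.80, adjusted p = 0.0703, edgeR). By edgeR 0 of the 6 tested genes of the list passed. At an unadjusted p under 0.05, 2 were higher (5.59% of all genes) and 1 lower (5.21% of all genes). DESeq2 called Prg4 higher and limma-voom 0, each with 4 of the 6 at such a p (10.4% and 9.7% of all genes). The 7 genes of the list summed to 501, 523 and 497 CPM with asparaginase and to 574, 546 and 544 CPM with PBS. Other liver cells may contribute to these levels, so they do not measure peritoneal macrophages alone. The part of these transcripts in the results was not tested. The B cell and plasma cell genes, read beside Cxcl13, summed to 3.09, 8.47 and 16.5 CPM with asparaginase and to 7.82, 27.7 and 6.41 CPM with PBS, which overlap. Neutrophil genes summed to 6.15, 7.13 and 5.34 CPM with asparaginase and to 3.72, 5.34 and 2.42 CPM with PBS. Of the 6 tested, DESeq2 and limma-voom each called 0, with 3 and 0 at an unadjusted p under 0.05 (10.4% and 9.7% of all genes). The part of neutrophil genes in these results, Itgam included, was not tested.

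At 8 weeks 31 of 33 members were below 0, with a median log2 difference of -0.45 against 0.01 over all genes tested, where 49.1% of genes were below 0. No single member passed. The count by edgeR was 0 of 33, in a comparison that called 0.444% of genes, with 18 members lower (54.5%; 8.47% of all genes) and 1 higher (3.03%; 9.28% of all genes) at an unadjusted p under 0.05. DESeq2 called 7 members lower (Cd74, Clec4f, Ctss, Fcgr4, Folr2, Lyz2 and Vsig4), where it called 1.69% of genes lower, and limma-voom 0 (0.185% of genes lower). By edgeR, dropping the filter on low counts let 3 pass (Cd74, Folr2 and Vsig4). Omitting asparaginase replicate 3 of 8 weeks, which leaves the 2 libraries with squamous transcripts, let 3 pass (Cd74, Id3 and Vsig4). Omitting PBS replicate 1 of 2 weeks let 1 pass (Vsig4).

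The Kupffer cell surface genes had the lowest median of the role groups with more than 1 gene, -0.83. Of the 5, 4 were wholly below PBS (8.57% of all genes were). Vsig4, the complement receptor that clears bacteria from blood, measured 13.9, 12.9 and 12.7 CPM under asparaginase, where PBS livers had 33.7, 18.9 and 30.3 CPM (log2 -0.89, SE 0.20, adjusted p = 0.0611). Folr2, a folate receptor of resident macrophages, stood at 5.05, 5.498 and 5.42 CPM against 16.1, 7.98 and 14.3 CPM (log2 -1.07, SE 0.26, adjusted p = 0.0655). In both genes the 3 asparaginase livers were close together and below the lowest PBS liver, replicate 2. Folr2 shares 975 exon bases with Gm10602 on the opposite strand, and whether strand was used in counting is not given in the sources used here. Clec4f had a log2 difference of -0.67 (adjusted p = 0.128) and Timd4, a receptor for dying cells, one of -0.83 (adjusted p = 0.182).

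All 9 pan-macrophage genes were below 0 at 8 weeks, with a median of -0.54, and 5 were wholly below PBS (8.57% of all genes were). Ctss, the lysosomal protease that trims the invariant chain, measured 21.6, 16.8 and 16.8 CPM under asparaginase, where PBS livers had 46.0, 25.4 and 35.3 CPM (log2 -0.76, SE 0.20, adjusted p = 0.0775). Lyz2 stood at 36.9, 34.0 and 33.5 CPM against 105, 45.3 and 67.8 CPM (log2 -0.83, SE 0.26, adjusted p = 0.126). Neither gene overlapped between the groups. Lyz2 has a close paralog, Lyz1, and reads may be split between them. Csf1r, the receptor for the macrophage growth factor, had a log2 difference of -0.54 (adjusted p = 0.177), Aif1 one of -1.02 (adjusted p = 0.145) and the signalling adaptor gene Tyrobp one of -0.72 (adjusted p = 0.133). Csf1r shares 873 exon bases with Hmgxb3 on the opposite strand, so the limit given for Folr2 applies to it too.

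Receptors and antigen presentation genes were lower as well without passing. Fcgr4, an activating receptor for IgG, measured 2.63, 2.76 and 2.43 CPM under asparaginase, where PBS livers had 7.43, 3.84 and 6.79 CPM (log2 -1.01, SE 0.27, adjusted p = 0.0881). Cd74 stood at 50.9, 26.3 and 35.1 CPM against 113, 49.1 and 81.9 CPM (log2 -0.81, SE 0.21, adjusted p = 0.0775). The Fcgr4 groups were apart, and in Cd74 asparaginase replicate 1 lay just above PBS replicate 2. Id3 stood at 15.1, 11.0 and 20.8 CPM against 30.0, 16.1 and 34.6 CPM (log2 -0.57, SE 0.26, adjusted p = 0.284), with overlap and the opposite sign without the squamous libraries (0.36).

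Cxcl13 and Marco, which rose at 16 weeks, were below 0 at 8 weeks. Cxcl13 measured 1.06, 0.484 and 0.621 CPM under asparaginase, where PBS livers had 2.97, 0.861 and 1.82 CPM (log2 -0.94, adjusted p = 0.132). Marco stood at 7.66, 2.42 and 4.41 CPM against 11.0, 4.04 and 9.19 CPM (log2 -0.33, adjusted p = 0.64), a sign that turned when the squamous libraries were left out (0.12). Both genes overlapped between the groups. Spic at 1.94, 1.68 and 0.847 CPM against 2.10, 1.49 and 2.25 CPM and Itgam at 1.94, 0.855 and 0.593 CPM against 1.40, 1.03 and 1.27 CPM overlapped too. Above 0 stood Itgam and Slc40a1, the latter at 148, 131 and 117 CPM against 108, 103 and 130 CPM (log2 0.30, SE 0.12, adjusted p = 0.209).

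Of the other members at 8 weeks, Fcgr1 was at -0.71 (adjusted p = 0.187), Ccr2 at -0.62 (adjusted p = 0.217), Cd5l at -0.55 (adjusted p = 0.202), Msr1, a receptor for modified lipoproteins, at -0.45 (adjusted p = 0.208) and Mpeg1 at -0.44 (adjusted p = 0.196) on the log2 scale. Those not yet given lay within the ranges of their roles. The 5 scavenger receptors ran from -0.55 to -0.03, the 9 pan-macrophage genes, with Laptm5 and the lysosomal glycoprotein gene Cd68, from -1.02 to -0.35, and the 3 Fc gamma receptors, with Fcgr3, from -1.01 to -0.38. The 3 transcription regulators ran from -0.57 to -0.13, and the 5 monocyte genes, with Itgax and Cx3cr1, from -0.62 to 0.07.

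At 8 weeks 11 of the 33 members were wholly below PBS (33.3%; 8.57% of all genes) and 0 wholly above (7.29% of all genes). Against the PBS mean the median of the members was -0.45 and -0.96 on the log2 scale in asparaginase replicates 1 and 2, which carried squamous transcripts, and -0.87 in replicate 3. Among PBS livers it was 0.29, -0.55 and 0.13, with the low value in replicate 2, the 1 male PBS library of that age. Without asparaginase replicates 1 and 2, which leaves 1 male library, the fitted median was -0.35, and over all 30 alternatives 27 to 32 members stayed below 0. Labelled sex moved with treatment at this age, and its part was not tested beyond these fits and the values within each sex. Within females, 1 asparaginase against 2 PBS libraries, 31 members were lower (median log2 -0.64), and within males, 2 against 1, 30 were lower (median -0.37). Other cell types had their own medians at 8 weeks: -0.14 for 10 genes of sinusoidal endothelium and 0.01 for 9 of stellate cells, but -1.05 for 7 tested T and NK cell genes, -0.90 for 7 of B cells and -0.87 for 6 of erythroid cells.

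**Figure D3:**
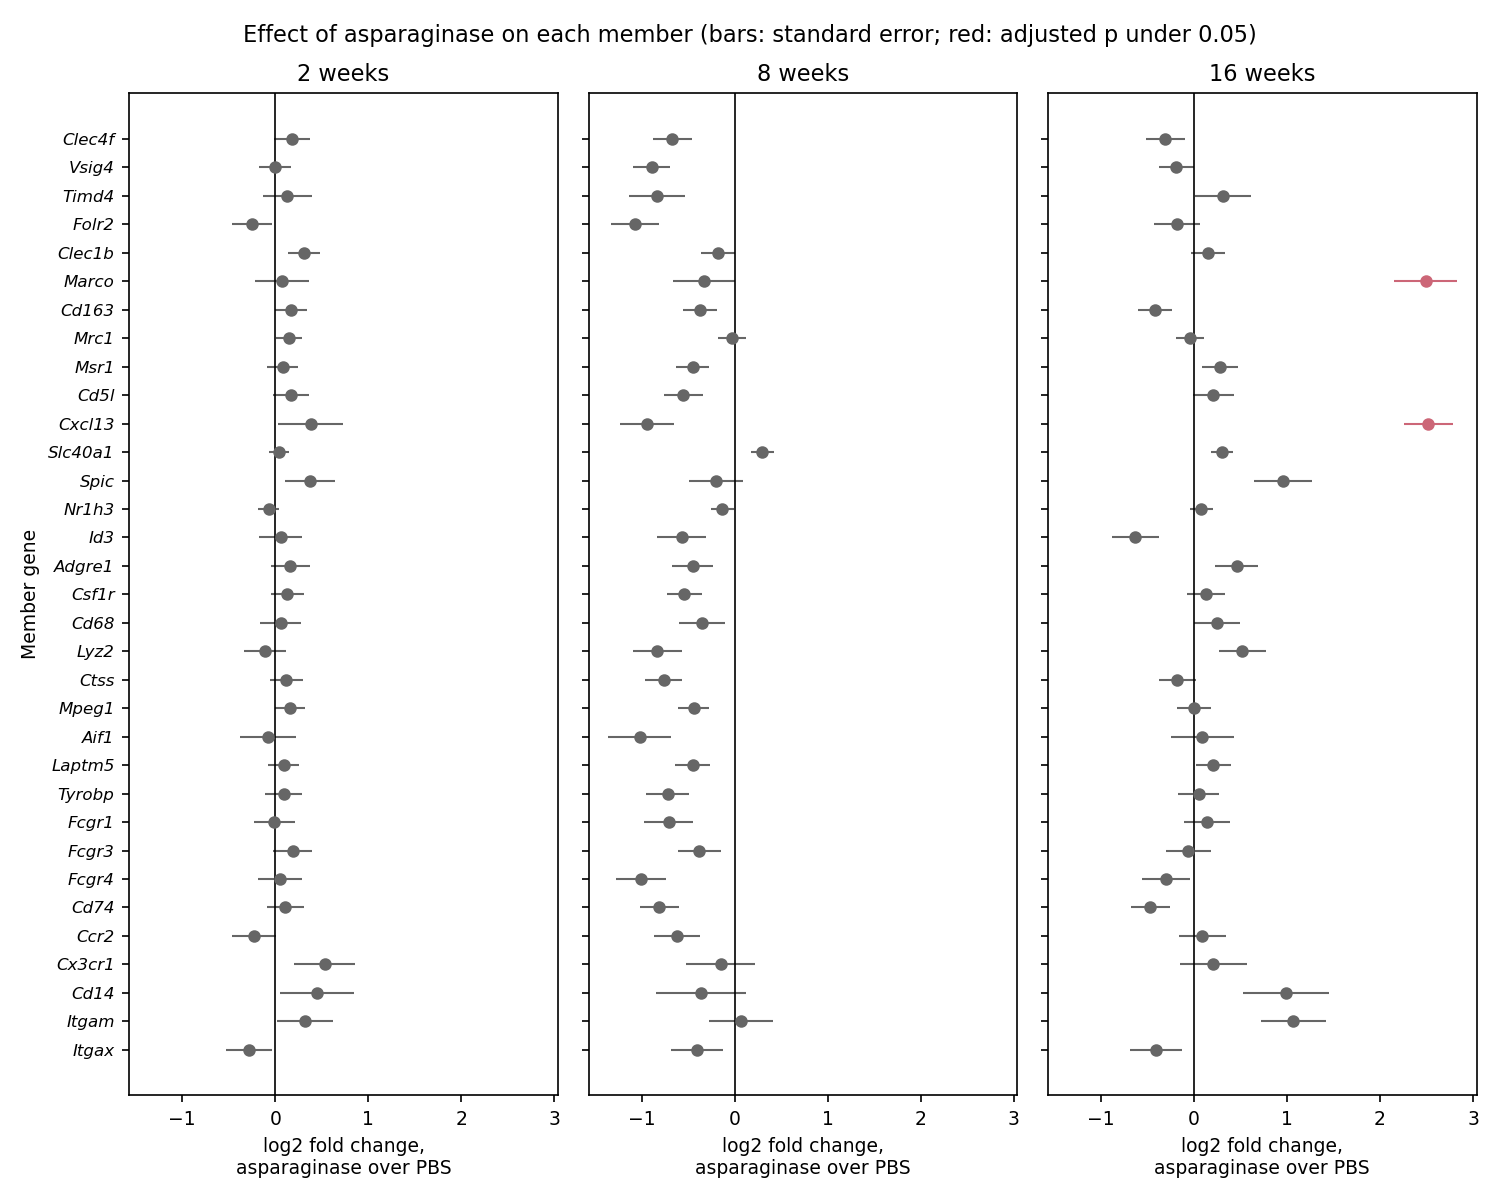
Log2 fold change (x axis) of each member (y axis) for asparaginase over PBS at 2, 8 and 16 weeks, from the edgeR fit to 18 libraries; bars are standard errors and red points passed an adjusted p of 0.05. Only Cxcl13 and Marco at 16 weeks are red, and 31 of 33 points lie left of 0 at 8 weeks.

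At 2 weeks the members were nearly level between treatments. None passed by edgeR, DESeq2 or limma-voom (0 of 33 each, 0.204% of genes called by edgeR), and 0 had an unadjusted p under 0.05 by any of the 3, while 11.4% of all genes did by edgeR. The median log2 difference was 0.11 with 25 members above 0 (50.1% of all genes were), and values ran from -0.28 to 0.53. The median was -0.09 without the 3 mixed libraries and -0.03 without PBS replicate 1. Cxcl13 was near its detection limit, at 0.429, 0.395 and 0.238 CPM with asparaginase and 0.237, 0.217 and 0.361 CPM with PBS, from 8 to 17 counts a library. Marco was high in both groups, at 40.3, 44.0 and 44.4 CPM and at 27.5, 42.9 and 52.2 CPM. Clec1b, the platelet-activating lectin CLEC-2 that Kupffer cells carry, had the smallest p, with a log2 difference of 0.31 (SE 0.17, adjusted p = 0.526). Its exons share 184 bases with those of Clec9a on the same strand. Acinar transcripts were at 869, 920 and 331 CPM in these asparaginase livers and at 89.7, 83.4 and 14.9 CPM in the PBS livers, and their part was not tested.

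The joint test of whether the effect of asparaginase differs among the ages called Cxcl13 and no other gene of the 16213 (0.00617%; adjusted p = 0.0321, edgeR). Its effects were 0.38 at 2 weeks, -0.94 at 8 weeks and 2.52 at 16 weeks on the log2 scale. Effect sizes at 16 and 8 weeks differed by 3.46 (SE 0.40, adjusted p = 0.00905), again the 1 gene called (0.00617%). Several omissions moved these values past the threshold. Leaving out asparaginase replicate 2 of the 2-week mice gave a joint adjusted p of 0.0529. At 8 weeks the value became 0.0554 when PBS replicate 2 was omitted and 0.148 when asparaginase replicate 1 was. At 16 weeks it became 0.123 on omitting PBS replicate 1, 0.228 on omitting PBS replicate 3, and 0.0927, 0.115 or 0.105 on omitting asparaginase replicate 1, 2 or 3. It was 0.297 with both squamous 8-week libraries left out and 0.0878 with the 3 mixed 2-week libraries left out. For the difference between 16 and 8 weeks it was 0.248 when asparaginase replicate 1 of 8 weeks was omitted and 0.0978 when PBS replicate 3 of 16 weeks was, with log2 values of 3.15 and 3.10, and 0.857 (log2 2.99) with both squamous libraries left out.

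Marco had the second smallest joint p of the members (adjusted p = 0.106), with effects of 0.07, -0.33 and 2.49. Its effect at 16 weeks exceeded that at 8 weeks by 2.81 (SE 0.47, adjusted p = 0.132) and that at 2 weeks by 2.42 (adjusted p = 0.125). By DESeq2, Marco passed the joint test (adjusted p = 8.98e-07), as did Cxcl13 (1.69e-10), and by limma-voom neither did (0.133 and 0.194). Lyz2 had the next smallest p in the difference between 16 and 8 weeks, at 1.35 (SE 0.36, adjusted p = 0.356).

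As a group, 29 of the 33 members (51.8% of all genes) had a higher effect at 16 than at 8 weeks, with a median difference of 0.70 on the log2 scale and 0.02 over all genes. Of these 15 had an unadjusted p under 0.05 (45.5% of members; 3.88% of all genes). In the other direction, 32 of 33 (48.9% of all genes) had a lower effect at 8 than at 2 weeks (median -0.63, 0.01 over all genes). There 0 members passed by edgeR, where 0% of all genes did, and 0 by DESeq2 or limma-voom. By edgeR 14 members were lower at an unadjusted p under 0.05 (42.4%; 3.76% of all genes), and by the other tools 16 and 17 had such a p. Between 16 and 2 weeks the median difference was 0.07, 0 members passed by edgeR (0.0185% of genes) with 3 at an unadjusted p under 0.05 (6.28% of genes), DESeq2 called Cxcl13 and Marco (0.463% of genes), and limma-voom called 0. These differences share libraries with each other and with the effects at each age.

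Averaged over the 3 ages, Marco rose by 0.74 on the log2 scale (SE 0.18, adjusted p = 0.0383), 1 of 33 members where 4.55% of all genes were called. That call was lost in 15 of 29 alternatives, among them the omission of any of 12 single libraries (adjusted p up to 0.152), and the effects behind the mean were 0.07, -0.33 and 2.49. Cxcl13 had a mean effect of 0.65 (adjusted p = 0.0507), Folr2 one of -0.50 (adjusted p = 0.0597), Vsig4 one of -0.36 (adjusted p = 0.0792) and Slc40a1 one of 0.21 (adjusted p = 0.0821).

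Some of the macrophage genes changed with age in PBS livers, at a share close to that of all genes. From 2 to 8 weeks 9 members passed (27.3%), 5 higher and 4 lower, where 29.9% of all genes were called, 13.8% higher and 16.1% lower, and from 2 to 16 weeks 8 passed (24.2%), 6 higher and 2 lower, against 25.8% of all genes, 12% being higher and 13.8% lower. Cxcl13 and Cd74 rose and Marco and Cd14 fell in both. These 2 comparisons share the 2-week PBS libraries, and comparisons by age also share the PBS libraries with the treatment effects. Some markers of other cell types fell with age in the same livers: by edgeR from 2 to 8 weeks 6 of 9 stellate cell genes (median log2 -0.52), 4 of 6 neutrophil genes (-2.65), 3 of 10 genes of sinusoidal endothelium (-0.30) and 2 of 3 of megakaryocytes and platelets (-1.92). From 2 to 16 weeks 4, 5, 3 and 2 of these fell, with medians of -0.28, -2.57, -0.19 and -2.13. Their part in the changes with age was not tested.

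Cxcl13 rose by 2.45 from 2 to 8 weeks (SE 0.32, adjusted p = 0.000143) and by 3.52 from 2 to 16 weeks (SE 0.31, adjusted p = 7.77e-06). Cd74 stood at 16.9, 19.7 and 20.0 CPM at 2 weeks, 113, 49.1 and 81.9 CPM at 8 weeks and 101, 66.5 and 51.1 CPM at 16 weeks, rises of 1.90 (SE 0.20) and 1.84 (SE 0.20) on the log2 scale. In both genes every adult PBS liver was above every 2-week PBS liver. Marco fell by 2.66 (SE 0.32) to 8 weeks and by 1.99 (SE 0.31) to 16 weeks, and its adult PBS livers all lay below its 2-week PBS livers. In 16-week asparaginase livers it was back within or above the 2-week PBS range of 27.5 to 52.2 CPM, a comparison across age and treatment for which no test was run.

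Other members changed less with age. Cd163 stood at 8.47, 12.9 and 12.7 CPM at 2 weeks, 12.2, 16.6 and 15.8 CPM at 8 weeks and 25.5, 23.4 and 24.3 CPM at 16 weeks, a rise of 1.12 on the log2 scale from 2 to 16 weeks (SE 0.17, adjusted p = 0.00046). Mpeg1, a pore-forming protein of phagocytes, rose by 0.59 and 0.68. Cd14 fell by 1.61 to 8 weeks and by 1.80 to 16 weeks, although 2-week PBS replicate 1, at 2.46 CPM, lay far below the other 2-week livers at 7.95 and 11.3 CPM. Itgam fell by 1.09, the mannose receptor gene Mrc1 fell by 0.48, and Nr1h3, which encodes LXR-alpha, and Id3 rose by 0.37 and 0.68 to 8 weeks alone. Lyz2 rose by 0.73 and Ccr2 by 0.76 to 16 weeks. Of 30 alternatives the call to 8 weeks was lost in 20 for Id3, 7 for Nr1h3, 6 for Itgam, 4 each for Mpeg1 and Mrc1 and 3 for Cd14, and the call to 16 weeks in 8 for Ccr2 and 6 for Lyz2. The 5 Kupffer cell surface genes had 0 called at either age by edgeR, DESeq2 or limma-voom and 0 at an unadjusted p under 0.05 by any of them, with medians of -0.15 and 0.08.

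**Figure D4:**
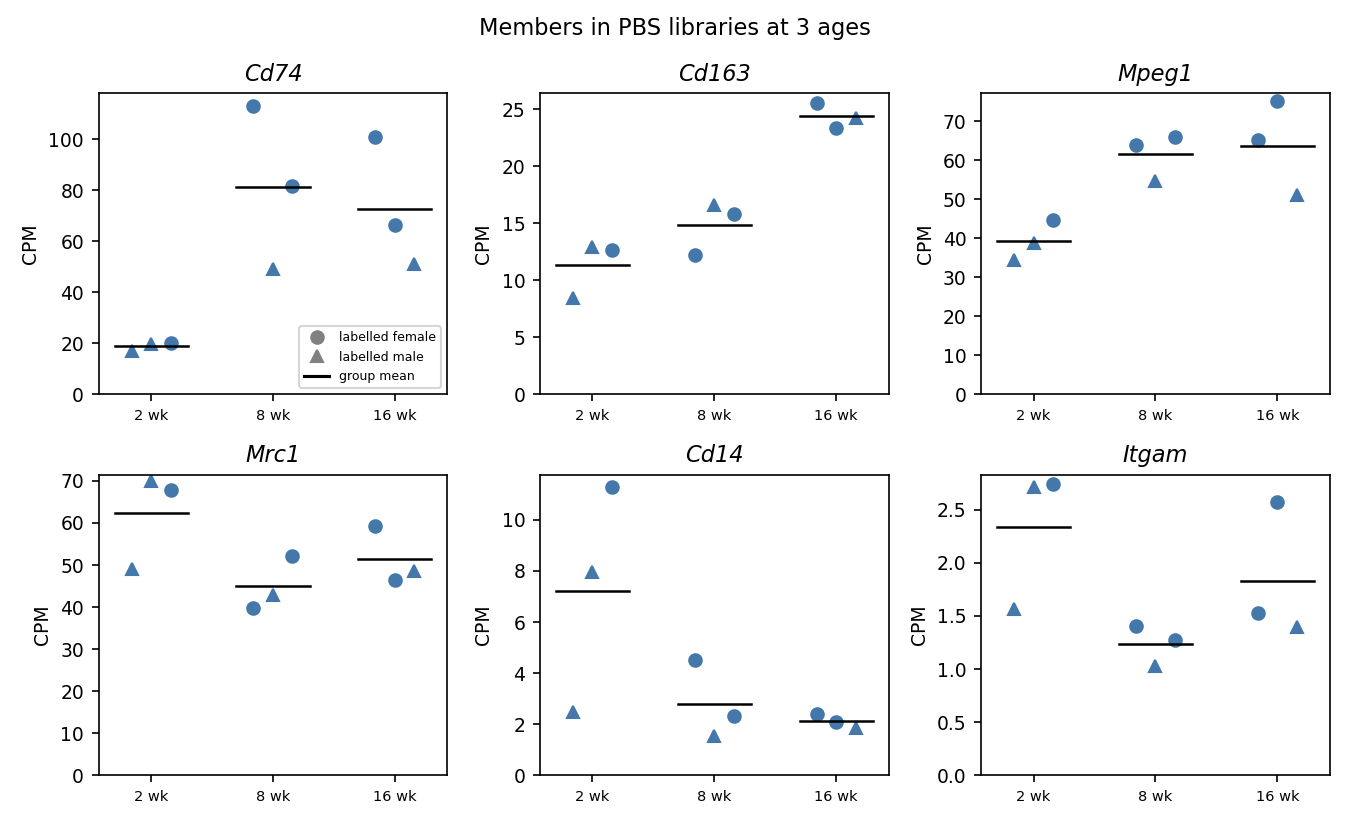
CPM of 6 members in the PBS libraries at 2, 8 and 16 weeks; points are libraries (circles labelled female, triangles labelled male) and bars are group means (n = 3). Cd74, Cd163 and Mpeg1 are higher at 16 than at 2 weeks, and Cd14 is lower.

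The count of members called from 2 to 8 weeks fell to 4 on omitting PBS replicate 2 or 3 of 2 weeks and to 5 on omitting PBS replicate 1 of 8 weeks, and Cxcl13, Cd74 and Marco were called in each. From 8 to 16 weeks 0 of 33 passed by edgeR (0.278% of genes called) and 0 by limma-voom, with 4 at an unadjusted p under 0.05 by each (15% of genes by edgeR), while DESeq2 called Cd163, Cxcl13 and Slc40a1 higher (3.27% of genes called). Cxcl13 came closest by edgeR, at 1.08 on the log2 scale (SE 0.26, adjusted p = 0.0882).

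Labelled sex in the adult mice went with the same genes, in a comparison added after the data were seen. Over 8 and 16 weeks 32 of 33 members had a lower fitted level in livers labelled male than in those labelled female (52.8% of all genes did), with a median log2 difference of -0.38 against -0.02 over all genes. By edgeR 5 of 33 (15.2%) were lower in males, where 7.3% of all genes were, and 0 were higher (4.64% of all genes), with 16 lower and 0 higher at an unadjusted p under 0.05, where 17.7% of all genes were lower and 12.1% higher. DESeq2 called 7 lower (8.52% of genes) and limma-voom 5 (6.28% of genes), and neither called any higher. The 5 by edgeR were Cxcl13 at -0.76, the CD11c integrin gene Itgax at -0.74, the high-affinity IgG receptor gene Fcgr1 at -0.68, Cd74 at -0.67 and the lysosomal membrane gene Laptm5 at -0.56 on the log2 scale. Their number ran from 0 to 8 over 29 alternatives. It was 0 on omitting the 1 male PBS library of either age, 1 on omitting asparaginase replicate 1 of 8 weeks, 3 on omitting PBS replicate 2 or asparaginase replicate 1 or 3 of 16 weeks, and 8 on omitting asparaginase replicate 2 of 16 weeks. Among MHC class II genes 5 of 6 were lower in males (7.3% of all genes were). The sex term at each age was shared by the treatments. In 8-week asparaginase livers the member median against the PBS mean was -0.45 in the female and -0.96 and -0.87 in the males. In 16-week asparaginase livers it was -0.02 in the female and -0.19 and 0.26 in the males, so the difference was not seen there. Cxcl13 in those livers was at 17.2 CPM in the female and 17.2 and 17.7 CPM in the males.

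The partners of the members were read from lists of the same pathways. Among MHC class II genes, which work with Cd74, 6 of 6 rose from 2 to 8 weeks (13.8% of all genes did). From 2 to 16 weeks 5 of 6 rose (12% of all genes). H2-Ab1 rose by 1.87 (SE 0.22) and 1.82 (SE 0.22). With asparaginase at 8 weeks 6 of 6 were below 0 (49.1% of all genes were) with a median of -0.91. Of these 0 passed by edgeR, with 5 at an unadjusted p under 0.05 (8.47% of all genes were lower at such a p). By DESeq2 5 passed, where it called 1.69% of all genes lower, and by limma-voom 0. H2-Aa stood at 20.2, 8.46 and 13.0 CPM against 50.8, 19.6 and 35.4 CPM (log2 -0.98, adjusted p = 0.071), and H2-Eb1 had a log2 difference of -1.02 (adjusted p = 0.071). At 16 weeks the 6 genes summed to 34.7, 49.4 and 56.2 CPM with asparaginase and to 128, 76.7 and 56.5 CPM with PBS. DESeq2 and limma-voom each called 0 there, with 3 of the 6 at an unadjusted p under 0.05 (10.4% and 9.7% of all genes). Averaged over the ages, H2-Aa fell by 0.54 (adjusted p = 0.0429, edgeR) and H2-Eb1 by 0.56 (adjusted p = 0.0432), calls lost in 17 and 16 of 29 alternatives.

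In a list of 20 further Kupffer cell genes, 16 were below 0 with asparaginase at 8 weeks (49.1% of all genes were), with a median of -0.33. By edgeR 0 passed, with 8 lower (8.47% of all genes) and 1 higher (9.28% of all genes) at an unadjusted p under 0.05. DESeq2 called 4 lower (C1qa, C1qb, Pltp and Wfdc17), where it called 1.69% of all genes lower, and limma-voom called 0. At 16 weeks 16 of the 20 were above 0 (49.9% of all genes were) and the median was 0.12. There edgeR and limma-voom called 0, each with 3 at an unadjusted p under 0.05 (10.8% and 9.7% of all genes). DESeq2 called Ccl24 lower, where it called 0.909% of all genes lower. Cd207 of this list rose with age, by 1.28 to 8 weeks and 1.77 to 16 weeks in PBS livers.

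Of 9 iron recycling genes, read beside Slc40a1, Tfrc fell with asparaginase at 16 weeks, from 25.3, 32.6 and 29.9 CPM to 9.11, 9.90 and 8.71 CPM (log2 -1.69, SE 0.32, adjusted p = 0.0486). Tfrc encodes the transferrin receptor, which hepatocytes and red cell precursors also express, and its call was lost in 18 of 30 alternatives with the log2 value between -1.76 and -1.6. The haem-binding plasma protein gene Hpx rose by 0.46 in the mean over the ages (adjusted p = 0.048), lost in 20 of 29 alternatives. At 16 weeks DESeq2 called Hpx higher and Tfrc lower, where it called 2.01% of all genes, and limma-voom called 0 of the list.

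Of 13 macrophage lineage regulators, Klf4 rose with asparaginase at 8 weeks, at 8.77, 3.76 and 2.51 CPM against 2.07, 1.56 and 1.97 CPM (log2 1.6, SE 0.32, adjusted p = 0.046). It was highest in the libraries with squamous transcripts, whose part was not tested beyond leaving them out: then the log2 value was 0.69, and the call was lost in 20 of 30 alternatives in all. Among monocyte chemokines and inflammatory macrophage products, Ccl2 fell by 0.86 and Cxcl9 by 0.88 in the mean over the ages (adjusted p = 0.0371 and 0.0283), lost in 19 of 28 and 7 of 29 alternatives. Gpnmb of the lipid-associated macrophage list rose by 1.43 (adjusted p = 0.0407), lost in 18 of 28, at levels of at most 1.04 CPM, that value being in 8-week asparaginase replicate 1.

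The other pathway lists had 0 genes called with asparaginase at 16 weeks by edgeR, DESeq2 or limma-voom. An unadjusted p under 0.05 there belonged to 10.8% of all genes by edgeR, 10.4% by DESeq2 and 9.7% by limma-voom. The 6 tested B cell homing partners of Cxcl13 had a median of 0.47, and 1 had an unadjusted p under 0.05 by edgeR, 1 by DESeq2 and 2 by limma-voom. The 8 genes of CD14 and Toll-like receptor signalling had a median of 0.23, with 2 by each tool, and the 12 niche and growth signals one of 0.09, with 1 by each. The 9 tested genes of inflammatory monocytes had a median of 0.29, with 0 by each. The cytokine genes Tnf, Il6 and Il10 were too low to be tested, at 0.351 CPM or less in every library.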

How the data were processed

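Liver RNA of 18 libraries was analysed from the table of raw read counts by gene that the authors deposited. TopHat2 2.0.9, TopHat and DESeq2 and the builds GRCm38 and mm10 are named in the submitters' processing notes without their roles. How reads were counted, on which annotation and with which strand setting is not given in the sources used here. Symbols and positions came from GENCODE M21 by identifier (35449 of 37315 matched).

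Genes were filtered by edgeR's filterByExpr (minimum count 10, minimum total 15). Counts were scaled by TMM and fitted with edgeR 4.0.16 (R 4.3.3) as a quasi-likelihood model over all 18 libraries, with 6 group terms, a labelled-sex term within 8 and within 16 weeks (0.5 male, -0.5 female) and 10 residual degrees of freedom. No sex term was used at 2 weeks, where transcripts go against the labels in 3 of 6 libraries. In each of 11 comparisons, and in the one by labelled sex, Benjamini-Hochberg adjustment ran over 16213 genes, and "rose" or "fell" means an adjusted p under 0.05. Standard errors are the log2 fold change over the square root of F. The method was tested on simulated data. Alternatives were DESeq2 1.42.0, limma-voom (limma 3.58.1), other scalings, filters and sex terms, and leaving out libraries.

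Members with values in every library were those called in a treatment comparison, Cxcl13 and Marco, and per role the smallest p in the mean effect and in the joint test. Pathway genes are those called, up to 3 a direction by smallest p. For PBS ages the 5 largest changes each way were taken. Spic and Itgam at 8 weeks and other members named with a fold change only were chosen after their values were seen, as were Tnf, Il6, Il10 and Prg4. Members and lists were chosen with earlier results of these data known. Promoters are from the RefSeq table.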

Additional observations from a re-analysis of the deposited data

Results flagged for a closer look

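The effect of asparaginase on Cxcl13 differed among the 3 ages by a test of the difference itself. In the joint edgeR test its adjusted p was 0.0321, the 1 gene called of 16213. That call was lost in 13 of 29 alternatives, with adjusted p-values up to 0.297, among them limma-voom (0.194) and a sex term at every age (0.0604). The effect at 16 weeks exceeded that at 8 weeks by 3.46 on the log2 scale, a call lost in 5 of 30 alternatives (adjusted p up to 0.857). At 16 weeks each asparaginase liver was above each PBS liver, and at 8 weeks the groups overlapped with the asparaginase mean below the PBS mean (0.722 against 1.88 CPM).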

How the results depend on the processing

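Leaving out 1 library at a time gave member counts of 0 to 0 at 2 weeks, 0 to 3 at 8 weeks, 1 to 2 at 16 weeks, 0 to 2 for the mean effect, 0 to 2 for the joint test, 0 to 2 for 16 minus 8 weeks, 0 to 0 for 16 minus 2 and 8 minus 2 weeks, 4 to 9 and 6 to 10 for PBS livers from 2 to 8 and 2 to 16 weeks, and 0 to 1 from 8 to 16 weeks. With DESeq2 7 members passed at 8 weeks (0 in the edgeR test), where 3.45% of all genes did (0.444%). For the mean effect 6 passed (1), with 9.25% of genes (4.55%), and in the joint test 2 (1), with 0.902% (0.00617%). For 16 minus 8 weeks DESeq2 called 3 (1), with 0.494% of genes, and for 16 minus 2 weeks 2 (0), with 0.463%. For PBS livers from 8 to 16 weeks it called 3 (0), with 3.27% of genes. With limma-voom 2 members passed for the mean effect and 0 in the joint test, where 4.27% and 0% of all genes did. For the other fits in this paragraph the share of all genes called is not given, so their counts describe these members only. Without a filter on low counts they were 3 at 8 weeks, 3 for the mean effect, 2 in the joint test, 2 for 16 minus 8 weeks and 1 for 16 minus 2 weeks. DESeq2 size factors and the 1 CPM filter each gave 2 for the mean effect. A sex term at every age gave 4 for the mean effect and 0 in the joint test. With no sex term the counts were 2, 0 and 0 for the mean effect, the joint test and 16 minus 8 weeks. Without the 3 mixed 2-week libraries the mean effect and the joint test had 0, and without the 2 squamous 8-week libraries these and 16 minus 8 weeks had 0, in fits with fewer libraries. Fitting only the ages compared gave 1 at 16 weeks and 0 for 16 minus 8 weeks. The cause of the other changes was not tested. Signs turned for Marco at 2 weeks (-0.02 with a sex term at every age, -0.33 without the mixed libraries, -0.16 without PBS replicate 1, beside 0.28 without PBS replicate 3) and, without the squamous libraries, for Marco (0.12) and Id3 (0.36) at 8 weeks. Upper-quartile scaling moved the median log2 difference of all genes between 2 and 8 weeks to -0.11, from -0.02 in the main fit. No paired analysis was possible because the numbers in the sample titles run on through the groups and no 2 groups share one. Cxcl13 at 2 weeks and Cx3cr1 rest on 6 to 30 counts a library.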

Other observations

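Labelled sex could also be read in PBS livers alone, where the 1 male library was below both female libraries in 29 of 33 members at 8 weeks and in 28 of 33 at 16 weeks. The median log2 difference from the female mean was -0.76 and -0.55, with no replicate check. Major urinary protein genes, which males make more of, took 43.0% and 47.9% of the counts in those 2 male libraries and 20.7% to 28.4% in the 4 female PBS libraries, and their part was not tested beyond leaving those genes out of the scaling.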
